A study of Homo sapiens with 8 samples.

Results

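A set of 9 genes of MHC class I antigen presentation was followed in the human neuroblastoma (NB) cell line IGR-N91, over 8 RNA-seq libraries. The genes were chosen by name, as the rows of the deposited count table whose Ensembl identifier maps to the symbols HLA-B, HLA-C, HLA-E, B2M, TAP1, TAP2, TAPBP, PSMB9 and NLRC5. All 9 had a row among the 60676 of the table. In 2 of the 9, B2M and NLRC5, there were enough reads for a test, and the other 7 held at most 1 read in any library.

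IGR-N91 cells were grown as aggregates in hanging drops, and total RNA from the whole aggregates was sequenced. Aggregates in control medium were compared with aggregates exposed to medium conditioned by sympathetic ganglia of chick embryos at embryonic day 8 (E8-cGScm), by dorsal root ganglia of chick embryos at the same stage (E8-cDRGcm), or by sympathetic ganglia of mouse embryos at stage E15.5 (E15.5-mGScm). Exposure lasted 20 h by the sample protocols and 24 h by the text of the series. Each of the 4 groups had 2 libraries of the same cell line and culture, with no genetic change named between the groups, and the labels do not say whether the libraries came from separate cultures, so that the p-values measure only the spread between these libraries, which may be technical.

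MHC class I molecules show peptides from inside the cell to CD8+ T cells and are read by natural killer cells. Each molecule is a heavy chain (HLA-B, HLA-C and HLA-E among others) held together with beta-2-microglobulin, the product of B2M. Peptides are cut by the proteasome, in which PSMB9 replaces a constitutive subunit after interferon exposure, moved into the endoplasmic reticulum by the TAP1-TAP2 transporter, and loaded on the heavy chain with the help of tapasin, the product of TAPBP. NLRC5 is a transactivator that acts at the promoters of class I genes and of several partners, and NB is known as a tumour type in which these genes are often weakly expressed.

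The promoters are shown first, since the class I genes are known to be read through a shared set of elements for NF-kB, interferon regulatory factors (IRF) and the CREB and NF-Y factors that work with NLRC5. RefSeq (GRCh38.p14) gave a promoter for 7 of the 9 genes, with 2 starts for TAP1, and HLA-E and NLRC5 are named only. The 250 bases before the start are printed 5′ to 3′ on the strand of the gene for B2M, whose level could be measured, for the heavy chains HLA-B and HLA-C, and for the transporter subunit TAP1. Capitals mark every match on either strand to the NF-kB consensus, the IRF core AANNGAAA, the CRE core TGACG or the inverted CCAAT box ATTGG, and the IRF core can match in overlapping copies.
B2M, chr15:44711267-44711516, plus strand: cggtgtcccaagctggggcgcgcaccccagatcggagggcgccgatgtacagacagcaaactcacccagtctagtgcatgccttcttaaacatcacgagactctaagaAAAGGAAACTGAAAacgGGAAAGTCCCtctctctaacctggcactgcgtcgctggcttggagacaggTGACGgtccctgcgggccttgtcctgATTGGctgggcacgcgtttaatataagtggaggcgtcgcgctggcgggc
HLA-B, chr6:31357180-31357429, minus strand: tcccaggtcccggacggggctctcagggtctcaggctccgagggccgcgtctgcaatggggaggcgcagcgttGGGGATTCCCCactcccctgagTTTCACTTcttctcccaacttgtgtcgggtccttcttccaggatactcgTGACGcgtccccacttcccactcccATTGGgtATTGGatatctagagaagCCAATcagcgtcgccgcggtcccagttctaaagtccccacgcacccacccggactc
HLA-C, chr6:31272093-31272342, minus strand: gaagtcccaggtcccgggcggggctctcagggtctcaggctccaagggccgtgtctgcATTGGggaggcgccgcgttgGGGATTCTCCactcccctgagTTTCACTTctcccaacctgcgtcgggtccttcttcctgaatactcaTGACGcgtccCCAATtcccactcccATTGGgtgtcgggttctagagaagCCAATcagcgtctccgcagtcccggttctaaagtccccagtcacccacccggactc
TAP1, first start, chr6:32853705-32853954, minus strand: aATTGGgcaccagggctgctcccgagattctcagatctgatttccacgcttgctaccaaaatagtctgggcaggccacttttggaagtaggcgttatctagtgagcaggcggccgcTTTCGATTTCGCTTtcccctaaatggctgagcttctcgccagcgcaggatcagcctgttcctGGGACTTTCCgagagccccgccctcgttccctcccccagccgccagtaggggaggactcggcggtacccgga

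In B2M the NF-kB match lay at bases -125 to -116 before the start, behind 2 overlapping IRF cores at -142 to -135 and -136 to -129, with a CRE core at -75 to -71 and an inverted CCAAT box at -49 to -45. HLA-B and HLA-C had the order NF-kB, IRF, CRE and CCAAT from far to near, apart from 1 more CCAAT match at -192 to -188 in HLA-C. Their NF-kB, IRF and CRE matches lay at almost the same distances, in HLA-C at -172 to -163 for NF-kB and -151 to -144 for IRF. The CCAAT matches at -74 to -70 in HLA-B and at -95 to -91 in HLA-C had no counterpart in the other gene. TAP1 and TAPBP had an NF-kB match with a pair of overlapping IRF cores, TAP2 a pair of IRF cores with a CRE core, and PSMB9 a CRE core and a CCAAT box. Of the 7 genes, 5 held the NF-kB consensus, 6 the IRF core, 5 the CRE core and 5 the inverted CCAAT box. Over all 35116 RefSeq promoters of the same length, the shares were 5.21% for the NF-kB consensus, 20.3% for the IRF core, 21.2% for the CRE core and 32.0% for the inverted CCAAT box. The STAT element GAS, searched as TTCNNNGAA, was found before the second start of TAP1 alone among the 7 genes, against 6.57% of all promoters. A match is a run of letters and shows neither binding nor use in these cells.

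The 3 heavy chains, the transporter, tapasin and the immunoproteasome subunit were listed at or near 0 in all media. HLA-C, HLA-E, TAP1, TAP2 and PSMB9 had no read in any of the 8 libraries. HLA-B had 1 read in E8-cGScm replicate 1 and 1 in E8-cDRGcm replicate 1, and TAPBP had 1 read in E8-cDRGcm replicate 2. These libraries held between 7930765 and 15060744 counts. No difference between media could be tested for the 7 genes, and no fold is given.

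These 7 genes share a position. In GENCODE 44 on GRCh37 they lie on chromosome 6 inside an interval of 4.55 Mb, whose ends were set after the counts had been seen. Of its 177 protein-coding genes, 169 (95.5%) were at 0 in every library, and the other 8 had between 1 and 702 reads over all libraries together. In the interval 1.69% of the protein-coding genes reached 3 counts in a library, against 82.2% of the 45 genes in the 2 Mb before it, 80.8% of the 26 genes in the 2 Mb after it, and 71.0% of the 19660 other protein-coding genes. Genes that every cell is known to use were also at 0 there, among them RPS18, which encodes a ribosomal protein, TUBB, which encodes a beta-tubulin, the kinase subunit gene CSNK2B and the splicing factor gene DDX39B, all 4 named after their values were seen. Beyond the interval, BAK1, a cell death effector, had 17 to 40 reads in each library, and HMGA1, a chromatin protein gene, had 23934 reads in total. A count of 0 for HLA-B, HLA-C, HLA-E, TAP1, TAP2, TAPBP or PSMB9 is therefore given as listed, with no upper limit on the expression of these genes. Whether the index used for alignment held alternate copies of this interval, and how reads with several matches were counted, was not given in the sources used here, and the part of either in the zeros was not tested. HLA-B and HLA-C also resemble each other and further heavy chain genes closely, and PSMB9 overlaps TAP1 in the annotation, so that reads of these genes could be split or lost in counting.

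B2M (ENSG00000166710, chr15:45003556-45011049 in GRCh37, plus strand), the gene of the shared light chain of class I molecules, was measured in every library. Control replicates 1 and 2 had 20.3 and 17.6 CPM (reads of the gene per 1e6 reads, with library sizes scaled by TMM, which corrects for composition), a mean of 18.9 ± 1.87 (SD, n = 2). In E8-cGScm the libraries had 21.2 and 20.9 CPM, with a mean of 21.1 ± 0.164. In E8-cDRGcm they had 24.4 and 21.5 CPM, with a mean of 22.9 ± 2.06. B2M was highest in E15.5-mGScm, at 26.1 and 24.8 CPM and a mean of 25.5 ± 0.951. The raw counts behind these levels ran from 204 to 326 reads.

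B2M rose in E8-cDRGcm and in E15.5-mGScm, by less than the fold of 1.5 that was asked of a call. By edgeR's quasi-likelihood test with Benjamini-Hochberg adjustment over the 16680 genes tested, B2M was 1.35-fold higher in E15.5-mGScm than in control, with a log2 fold change of 0.43 ± 0.11 (SE), a 95% interval of 0.21 to 0.65 and an adjusted p of 0.00203. In E8-cDRGcm it was 1.21-fold higher, with a log2 fold change of 0.28 ± 0.10, an interval of 0.07 to 0.49 and an adjusted p of 0.0229. In E8-cGScm the log2 fold change was 0.16 ± 0.10, with an interval of -0.05 to 0.37 and an adjusted p of 0.270. An adjusted p under 0.05 in the higher direction was common: 17.8% of all genes tested had one in E15.5-mGScm and 24.8% in E8-cDRGcm. Without control replicate 2, the control library with less B2M, the adjusted p was 0.0671 in E15.5-mGScm and 0.291 in E8-cDRGcm, and without E8-cDRGcm replicate 1 it was 0.265 in E8-cDRGcm. In bulk aggregates, a change in the share of cells that express B2M and a change in its RNA per cell cannot be told apart.

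Between the conditioned media, B2M was 1.21-fold higher in E15.5-mGScm than in E8-cGScm (log2 fold change 0.27 ± 0.11, adjusted p 0.0362 by edgeR), where 23.9% of all genes had an adjusted p under 0.05 in the higher direction. This difference passed that limit in 8 of 14 other settings, and without E15.5-mGScm replicate 1 its adjusted p was 0.190. E8-cDRGcm and E8-cGScm differed by a log2 fold change of 0.12 (interval -0.08 to 0.33, adjusted p 0.399 by edgeR). E15.5-mGScm and E8-cDRGcm differed by 0.15 (interval -0.07 to 0.37, adjusted p 0.249 by edgeR). The order of the mean levels was thus control, E8-cGScm, E8-cDRGcm and E15.5-mGScm, in which no neighbours passed an adjusted p of 0.05.

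**Figure D1:**
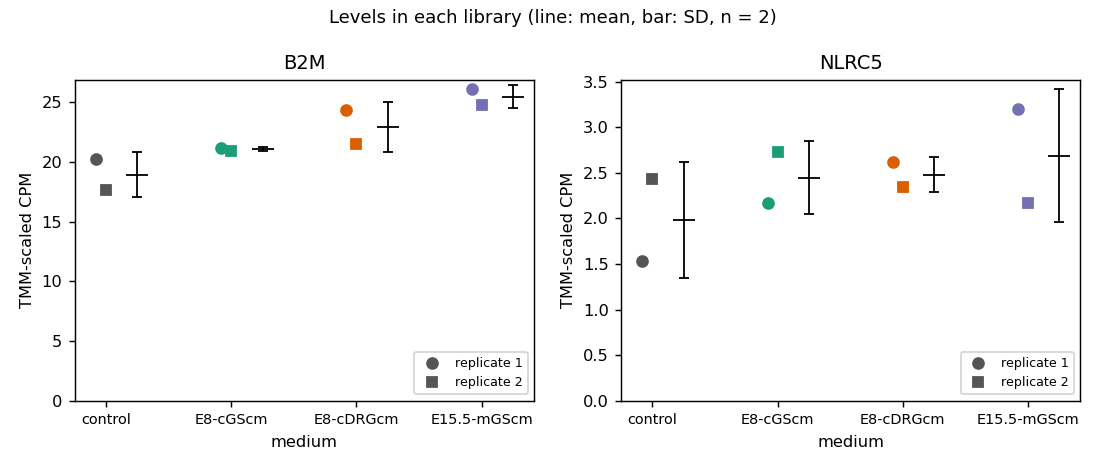
TMM-scaled CPM of B2M and NLRC5 in each library (circle, replicate 1; square, replicate 2) by medium, with the mean and SD of 2 libraries in black. B2M ran from 17.6 to 20.3 CPM in control and from 24.8 to 26.1 in E15.5-mGScm, while the NLRC5 groups overlap throughout.

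NLRC5 (ENSG00000140853, chr16:57023397-57117443 in GRCh37, plus strand), the class I transactivator, was weakly expressed and did not separate the media. The control libraries had 20 and 37 reads, or 1.53 and 2.43 CPM, with a mean of 1.98 ± 0.639 (SD, n = 2). E8-cGScm had 27 and 39 reads (2.16 and 2.73 CPM), E8-cDRGcm 35 and 32 reads (2.62 and 2.34 CPM) and E15.5-mGScm 25 and 19 reads (3.20 and 2.17 CPM). The means were 2.45 ± 0.400 CPM in E8-cGScm, 2.48 ± 0.193 in E8-cDRGcm and 2.69 ± 0.730 in E15.5-mGScm, and the ranges of all 4 groups overlapped. Against control, the log2 fold change of NLRC5 was 0.29 in E8-cGScm (interval -0.31 to 0.90, adjusted p 0.498 by edgeR), 0.30 in E8-cDRGcm (interval -0.30 to 0.90, adjusted p 0.418) and 0.40 in E15.5-mGScm (interval -0.25 to 1.06, adjusted p 0.351). Between the conditioned media its log2 fold changes lay between 0.01 and 0.11, with adjusted p-values from 0.800 to 0.986 by edgeR. These intervals reach past a fold of 1.5 in at least 1 direction, so that a change of that size is not excluded. NLRC5 overlaps an antisense gene in the annotation, and since the strand setting of the counting was not given in the sources used here, reads of the pair cannot be told apart.

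Per length, B2M stood well above NLRC5. In control medium, FPKM (CPM divided by the exonic length of the gene in kilobases) came to 6.07 ± 0.598 for B2M and 0.160 ± 0.0516 for NLRC5 (SD, n = 2). Over all libraries B2M ran from 5.65 to 8.37 FPKM and NLRC5 from 0.123 to 0.259 FPKM. PSME1, a subunit of the proteasome activator PA28 named after its values were seen, had 37.1 FPKM in control.

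Under the call rule of an adjusted p under 0.05 and a fold of at least 1.5, 0 of the 2 tested genes were called in any of the 6 comparisons. At an adjusted p under 0.05 alone, 1 of the 2, B2M, passed in 3 of them. Of all 16680 genes, the rule called 8.59% in E8-cGScm, 20.7% in E8-cDRGcm and 13.9% in E15.5-mGScm against control, 7.49% between E8-cDRGcm and E8-cGScm, 22.3% between E15.5-mGScm and E8-cGScm and 26.2% between E15.5-mGScm and E8-cDRGcm. With 2 genes tested, the count of 0 tells little against these shares.

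**Figure D2:**
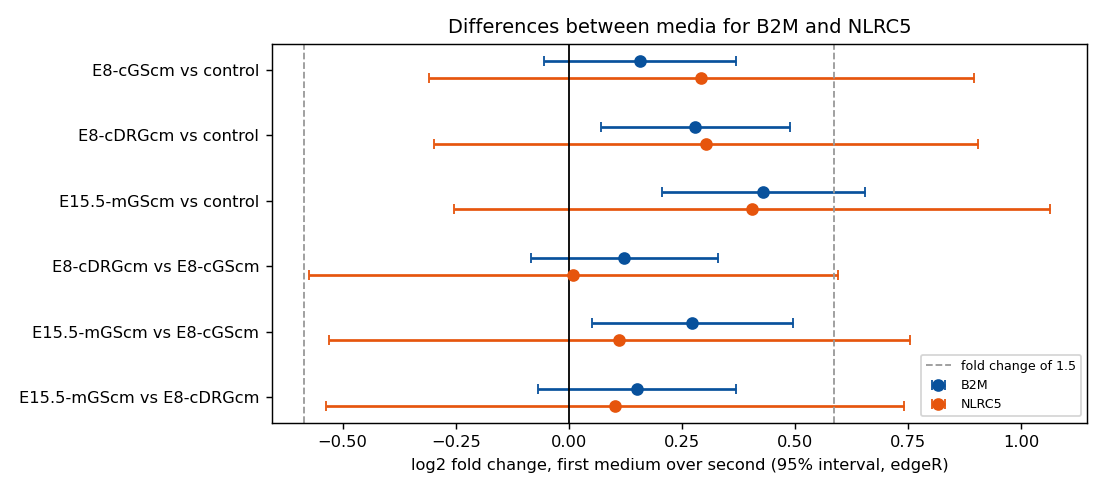
Log2 fold change with its 95% interval (edgeR) of B2M and NLRC5 in the 6 comparisons of media; dashed lines mark a fold of 1.5. The intervals of B2M lie above 0 in E8-cDRGcm and E15.5-mGScm against control and in E15.5-mGScm against E8-cGScm, and all NLRC5 intervals cross 0.

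The genes outside the lists whose relative levels over the 8 libraries were closest to the mean of B2M and NLRC5 included DDB2, SCYL2, HSPA4L and GNE, among 11373 genes with a mean of at least 5 CPM. Their root mean square differences, on the log2 scale relative to control, were between 0.0831 for DDB2 and 0.108 for GNE. DDB2 had log2 fold changes of 0.24 in E8-cGScm, 0.23 in E8-cDRGcm and 0.42 in E15.5-mGScm.

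The partners of the 9 genes outside the chromosome 6 interval could be followed in part. Of 8 proteasome genes, 6 were tested. PSMB8, the immunoproteasome subunit next to TAP1 in the interval, was at 0, and PSMB10, the third such subunit, had 0 to 7 reads. PSME3, which encodes a nuclear proteasome activator, fell in E8-cDRGcm by 0.94 on the log2 scale (SE 0.07, adjusted p 1.22e-14 by edgeR), from 83.0 CPM in both control libraries to 43.3 and 43.4. It was the 1 proteasome gene called in E8-cDRGcm, and 0 of the 6 were called in E8-cGScm or E15.5-mGScm. The rule called 9.81% of all genes higher and 10.9% lower in E8-cDRGcm, 4.73% and 3.86% in E8-cGScm, and 6.65% and 7.27% in E15.5-mGScm.

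Of 6 genes of peptide trimming and loading, all tested, 4 were called lower in E8-cDRGcm, beside 10.9% of all genes tested. CALR, which encodes the chaperone calreticulin of the loading complex, fell by 0.77 on the log2 scale (SE 0.05, adjusted p 2.12e-16 by edgeR), from 1415 CPM in both control libraries to 837 and 825. PDIA3, its thiol oxidoreductase partner, fell by 0.75 and CANX, which encodes calnexin, by 0.72, with adjusted p-values of 4.19e-15 and 2.23e-07 by edgeR. These chaperones serve the folding of many other glycoproteins too. TAPBPL, a tapasin relative that edits peptides, had 17 and 31 reads in E8-cDRGcm and 40 and 52 in control, and fell by 0.87 on the log2 scale (adjusted p 0.0195 by edgeR). That call was lost without control replicate 2 (adjusted p 0.108) and without E8-cDRGcm replicate 1 (adjusted p 0.267). In E15.5-mGScm, 1 of the 6 was called, ERAP2, an aminopeptidase that trims peptides, higher with a log2 fold change of 1.07 (SE 0.37, adjusted p 0.0202 by edgeR), on 11 and 23 reads in control and 17 and 25 in E15.5-mGScm. It was lost without control replicate 1 (adjusted p 0.191) and without E15.5-mGScm replicate 2 (adjusted p 0.220). In E8-cGScm 0 of the 6 were called, although TAPBPL fell by 1.16 on the log2 scale without E8-cGScm replicate 2 (adjusted p 0.0257 by edgeR), whose 42 reads stood against 18 in the other library. Tested directly, CALR was higher in E15.5-mGScm than in E8-cDRGcm by a log2 fold change of 1.08 (adjusted p 7.53e-21 by edgeR). In that comparison 5 of the 6 were called in either direction, all of them higher, beside 26.2% of all genes tested in either direction. It shares the E8-cDRGcm libraries with the comparison of E8-cDRGcm with control, so that both results are not independent of each other.

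Among 5 further class I or class I-like chains, HLA-F and HLA-G, which lie in the interval, were at 0, and HFE had 1 read. MR1, which presents vitamin metabolites to mucosal-associated T cells and pairs with beta-2-microglobulin, was called higher in E15.5-mGScm, with 7.43 and 5.37 CPM against 2.37 and 2.24 in control (log2 fold change 1.46 ± 0.25, adjusted p 1.38e-05 by edgeR). In E8-cDRGcm it was called higher by 0.61 (adjusted p 0.0481 by edgeR). That call ended when either control library or E8-cDRGcm replicate 2 was left out, with adjusted p-values of 0.102, 0.176 and 0.381. Of the 11 class II genes, CD74 and CIITA were tested and 0 were called in any comparison with control (CD74 fell by 0.60 on the log2 scale in E8-cDRGcm once replicate 2 was left out, adjusted p 0.0382 by edgeR), and the other 9, all in the interval, had no read.

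The regulators of class I include interferon signalling, NF-kB, and the RFX, NF-Y and CREB factors of class I promoters. Of 23 listed genes, 22 were tested, of which 2 were called in E8-cGScm, 6 in E8-cDRGcm and 6 in E15.5-mGScm, beside 8.59%, 20.7% and 13.9% of all genes tested. In E8-cGScm and E8-cDRGcm these counts lie near the share over all genes. IRF1, an interferon regulatory factor that acts on class I promoters, had 3.59 and 5.39 CPM in control, 5.53 and 6.02 in E8-cGScm, 10.1 and 8.86 in E8-cDRGcm and 16.0 and 12.3 in E15.5-mGScm. It was called higher in E8-cDRGcm (log2 fold change 1.06 ± 0.18, adjusted p 8.86e-06 by edgeR) and in E15.5-mGScm (1.63 ± 0.19, adjusted p 5.17e-09). IRF2, a relative of IRF1 that binds the same elements, was called higher in E15.5-mGScm (0.85 ± 0.10, adjusted p 1.43e-08), and in E8-cDRGcm its log2 fold change of 0.57 was just under the fold of 1.5.

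Of the 5 NF-kB genes, 4 were called higher in E15.5-mGScm, beside 6.65% of all genes tested. They are a part of the 23 regulators and were not planned as a list of their own. Over the whole list, 6 of the 22 tested genes were called higher there, so that the count in the part is description only. NFKB2, which encodes the p100 precursor of the p52 subunit, had 19.3 and 20.1 CPM in control, 37.8 and 36.5 in E8-cGScm, 63.9 and 62.8 in E8-cDRGcm and 73.8 and 92.2 in E15.5-mGScm. Its log2 fold changes were 0.91 in E8-cGScm, 1.69 in E8-cDRGcm and 2.08 in E15.5-mGScm, with adjusted p-values of 1.52e-09, 5.05e-18 and 3.72e-20 by edgeR. RELB, its binding partner, was called higher in E8-cDRGcm (0.87, adjusted p 2.04e-06 by edgeR) and in E15.5-mGScm (1.88, adjusted p 2.69e-14). NFKB1, which encodes the p105 precursor of p50, was called higher in E15.5-mGScm by 1.14 (adjusted p 2.97e-15 by edgeR) and lower in E8-cGScm, where it fell by 0.62 on the log2 scale (adjusted p 1.72e-07), although by 0.58 without control replicate 2 and by 0.51 without E8-cGScm replicate 1, both under the fold of 1.5. REL was called higher in E15.5-mGScm by 1.48 (adjusted p 2.15e-15 by edgeR). The log2 fold changes of RELA, named after its values were seen, were not called in any of the 3 media against control.

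In E8-cDRGcm, JAK1, a kinase of interferon receptors, rose by 0.71 and NFYA, a CCAAT-binding subunit, by 0.64 on the log2 scale (adjusted p 9.34e-14 and 5.85e-09 by edgeR). RFX5, a subunit of the factor that recruits NLRC5 to promoters, fell there by 0.94 on the log2 scale (adjusted p 5.91e-14 by edgeR). The median log2 fold change over the 22 regulators was 0.10 in E8-cGScm, 0.16 in E8-cDRGcm and 0.13 in E15.5-mGScm, beside medians over all tested genes of 0.01, 0.01 and -0.02. The 3 comparisons with control share the control libraries, so that their values stand side by side and are not independent of each other.

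**Figure D3:**
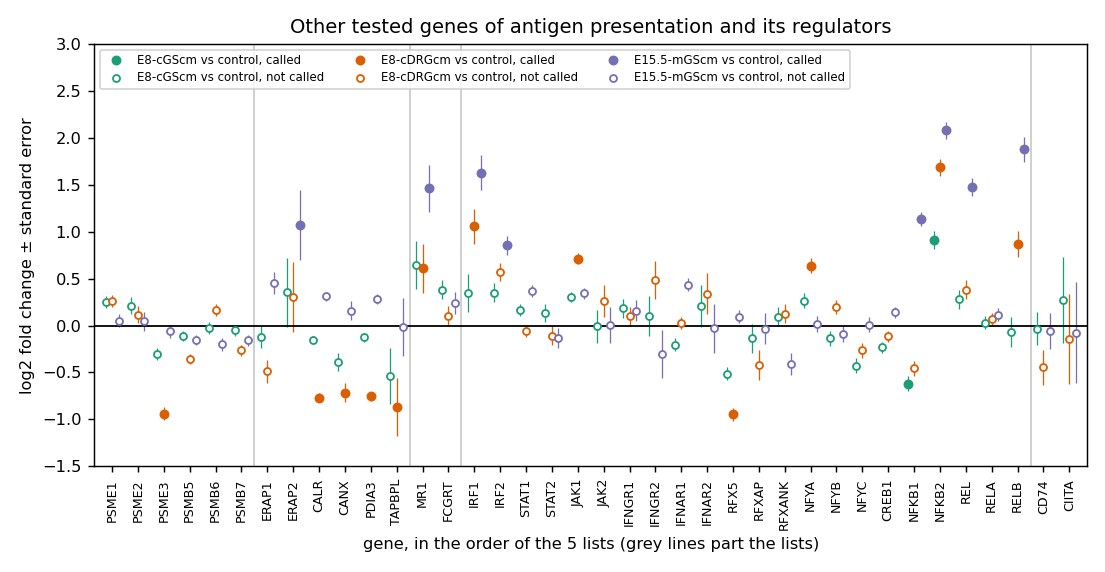
Log2 fold change with its standard error against control for the tested genes of 5 lists (proteasome, trimming and loading, class I-like chains, regulators, class II), in E8-cGScm (green), E8-cDRGcm (orange) and E15.5-mGScm (purple); filled points were called. CALR, CANX, PDIA3 and TAPBPL lie below 0 in E8-cDRGcm, and NFKB2, RELB, REL, NFKB1 and IRF1 reach from 1.14 to 2.08 in E15.5-mGScm.

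The cells carried the markers of their label in part, and the marker levels moved with the media. Of 10 noradrenergic NB markers 9 had counts. CHGA was at 0 and is the first of 28 neighbouring protein-coding genes on chromosome 14 that stayed under 3 counts in every library. The summed level of these markers was 2630 to 2711 CPM in control, 2186 to 2335 in E8-cGScm, 1974 to 2026 in E8-cDRGcm and 1868 to 1905 in E15.5-mGScm. STMN2 was the largest part of this sum, with a mean of 1192 CPM in control. Not every marker fell: DBH had means of 37.5 CPM in control and 51.8 in E15.5-mGScm. In E15.5-mGScm 3 of the 9 tested markers were called lower and 0 higher, beside 7.27% and 6.65% of all genes tested. Of 9 immune cell markers 2 reached 3 counts in a library, those at 0 included CD3E, MS4A1 and AIF1 (AIF1 lies in the interval), and the sum was 0.306 to 0.526 CPM in control, 0.140 to 0.241 in E8-cGScm, 0.524 to 0.659 in E8-cDRGcm and 0.457 to 1.41 in E15.5-mGScm. Of 10 glial, fibroblast and endothelial markers with a row 6 reached 3 counts, and those at 0 included SOX10 and CDH5. Their sum was 414 to 427 CPM in control, 434 to 447 in E8-cGScm, 448 to 462 in E8-cDRGcm and 467 to 474 in E15.5-mGScm, the same order of groups as for B2M. That order did not hold for PDGFRB, the largest part of the sum, with means of 256 CPM in control, 224 in E8-cGScm, 259 in E8-cDRGcm and 314 in E15.5-mGScm. Within that list COL1A2, DCN and LUM were called higher and COL1A1 lower in E15.5-mGScm. The E15.5-mGScm libraries also had the fewest counts, 7930765 and 8937397 against 12286211 to 15060744 in the others. The part of these markers and of depth in the B2M difference was not tested.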

How the data were processed

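The authors sequenced stranded total RNA libraries, made from 50 ng of RNA, as 75 bp single reads on a NextSeq500 and deposited raw read counts per Ensembl gene, without normalization. The submitters' processing notes name bcl2fastq 2.17.1.14, cutadapt 1.9.1, TopHat2 2.1.0 and HTSeq 0.11.3 with the build hg38, while the methods of the study name hg19. The count table carries no coordinates. The strand setting, the annotation release and the treatment of reads with several matches were not given in the sources used here.

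Of 60676 identifiers, 58611 matched a symbol, and gene positions and exonic lengths were taken from GENCODE 44 on GRCh37. Libraries were grouped by their culture condition label. A single robust quasi-likelihood model over all 8 libraries was fitted in edgeR 4.0.16 (R 4.3.3), after TMM scaling and its default filter of low genes, and Benjamini-Hochberg adjustment ran over 16680 genes. Calls needed a fold of 1.5 or more beside an adjusted p under 0.05. The steps were tested on simulated data. Counting error was under the spread between libraries, with a chi-square per gene of 1.78 to 3.64 between replicates.

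Some genes are not reported here. The 9 genes and all lists were chosen with earlier results of these data known. Genes named from the other lists were those called in a comparison with control, at most the 3 highest and 3 lowest where over 5 were called. Promoter letters come from RefSeq on GRCh38.p14. Of the planned motifs, the interferon-stimulated response element was searched as its IRF core. As alternatives, DESeq2 1.42.0 replaced edgeR, RLE replaced TMM, the filter was set to 1 count over all libraries or 10 in each, the fit held the compared groups alone, the fold was not asked for, a replicate block was added, or 1 library was left out.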

Additional observations from a re-analysis of the deposited data

How the results depend on the processing

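The count of 0 called genes in each of the 6 comparisons held under all alternatives but adjusted p alone, which gave 1, B2M, in E8-cDRGcm and in E15.5-mGScm against control and in E15.5-mGScm against E8-cGScm. The log2 fold change of B2M over 14 other settings was 0.32 to 0.52 in E15.5-mGScm, with adjusted p-values from 0.000839 to 0.0671, under 0.05 in 13 of them, and 0.18 to 0.38 in E8-cDRGcm, with adjusted p-values from 0.0142 to 0.291, under 0.05 in 11. By DESeq2 the adjusted p was 0.0356 in E15.5-mGScm and 0.176 in E8-cDRGcm, and in E15.5-mGScm against E8-cGScm it was 0.185 by DESeq2 and 0.188 with genes of 1 count over all libraries kept, and the cause was not tested. The differences of NLRC5 between media changed sign when 1 library was left out: -0.14 to 0.20 for E8-cDRGcm against E8-cGScm (-0.14 without E8-cGScm replicate 1, -0.07 without E8-cDRGcm replicate 1), -0.19 to 0.37 for E15.5-mGScm against E8-cGScm (-0.05 without E8-cGScm replicate 1, -0.19 without E15.5-mGScm replicate 1) and -0.20 to 0.36 for E15.5-mGScm against E8-cDRGcm (-0.20 without E15.5-mGScm replicate 1). A lone library was then assumed to vary like the other groups. With the longest transcript as length, control levels were 8.13 for B2M and 0.290 for NLRC5.

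The replicate numbers did not pair the libraries (correlations of same-numbered deviations from -0.0437 to 0.0420 over 6 pairs of groups). With a replicate block 0 of the 2 genes were called, and the log2 fold change of B2M in E15.5-mGScm was 0.43 (adjusted p 0.00178 by edgeR). The call of MR1 in E8-cDRGcm was lost under the block (adjusted p 0.0529), by DESeq2 (0.228) and with genes of 1 count over all libraries kept (0.0784), and those of TAPBPL in E8-cDRGcm (0.159) and ERAP2 in E15.5-mGScm (0.149) were lost by DESeq2. Over all genes DESeq2 called 839 in E8-cGScm against control, where edgeR called 1433, and 690 between E8-cDRGcm and E8-cGScm, where edgeR called 1249. Adjusted p alone gave 5213, 8261 and 6305 genes against control and 5037, 8304 and 8767 between media, against 1433, 3460, 2322, 1249, 3727 and 4368 with the fold. The depth of 19 to 39 reads limits what can be said of NLRC5.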

Other observations

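The interval with HLA-B, HLA-C, HLA-E, TAP1, TAP2, TAPBP and PSMB9 was not the sole stretch of genes with few or no reads. In GENCODE 44 on GRCh37 there were 23 runs of at least 20 neighbouring protein-coding genes of which none reached 3 counts in any library. The longest, from TCF19 to ZBTB22 with 106 genes, lies inside the interval. So do the runs from POLR1H to PSORS1C2 with 38 genes and from TRIM27 to HLA-G with 24. The 23 runs therefore count the interval more than once. Many other runs hold olfactory receptor or keratin genes, which a NB cell line is not known to use. Not all are of that kind: a run from TSEN34 to RDH13 on chromosome 19 held 31 genes, and one from TAF15 to DHRS11 on chromosome 17 held 25. The run from CHGA to SERPINA4 on chromosome 14 held 28 genes, CHGA being the chromogranin A gene and a marker of NB. A run of 16 genes on chromosome 17, from TMEM95 to POLR2A, includes the gene of the largest subunit of RNA polymerase II, and KANSL1 and MAPT, at another place on chromosome 17, were at 0 in all 8 libraries. These runs and genes were picked after their values had been seen.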
